A study of Mus musculus with 6 samples.

Results

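Sim1, Nkx2-2, Olig3, Lmx1b and Uncx encode 5 transcription factors and are described here as genes of V3 interneurons and of their p3 progenitor domain in the ventral spinal cord. They are 5 of the 56805 genes counted, found by symbol, and they were chosen on their difference in CPM, the count scaled to the library total (here with TMM factors), between cervical and thoracic libraries. That difference is therefore described below with no p-value, and where calls of the 5 genes are counted, the count is no evidence for it. The samples are motor neurons of mouse embryos at e12.5, labelled control in genotype and untreated, with 3 libraries from the cervical and 3 from the thoracic spinal cord. The title of the series names Hox5 activity and the diversity of motor neurons. The alleles carried by the control embryos, their strain, the way motor neurons were isolated and the number of embryos behind a library were not stated in the labels. A p-value here therefore reflects the spread among these 6 libraries, which may be technical.

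The p3 domain is the progenitor zone that borders the floor plate, and Sonic hedgehog secreted by the floor plate and notochord induces it. Its progenitors express the homeodomain repressor Nkx2-2, and the neurons they produce switch on Sim1, a bHLH-PAS factor that works as a dimer with proteins such as Arnt2. These V3 neurons are glutamatergic, and many send axons across the midline. Olig3, a bHLH factor, is transiently found in this lineage but is better known from progenitors of the dorsal neuron classes dI1 to dI3. Lmx1b, a LIM-homeodomain factor, is known from dI5 neurons, serotonergic neurons and dorsal limb mesenchyme, and Uncx, a paired-type homeodomain factor, from the posterior part of each sclerotome. Sim1 and Nkx2-2 are the usual markers of the V3 lineage, and the other genes are also known from the cells just named.

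Library totals were 32103071 to 33790634 counts, apart from thoracic replicate 1 with 53186131. Counts of the 5 genes ran from 120 (Sim1, cervical replicate 3) to 3392 (Uncx, thoracic replicate 1), and all 5 passed the low-count filter that left 21972 genes for testing. Genes of the labelled cell type were detected in all libraries. The 7 motor neuron genes Mnx1, Isl1, Isl2, Lhx3, Chat, Slc18a3 and Slc5a7 summed to 255 to 504 CPM in cervical and 327 to 493 CPM in thoracic libraries. Other ventral interneuron genes were also detected, with 9 of them summing to 445 to 469 CPM and 396 to 438 CPM. The sum of 8 floor plate genes was 415 to 875 CPM in cervical and 819 to 1155 CPM in thoracic libraries. The share of motor neurons in a library was not tested. In such bulk samples, fewer cells of a type and less RNA per cell cannot be told apart.

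All 5 genes had their 3 thoracic values above their 3 cervical values, as the plot of counts by library shows. Genes without overlap in this direction made up 7.50% of all tested genes. In edgeR's fit across all genes 4 of the 5, all but Uncx, were called higher in thoracic libraries (Benjamini-Hochberg adjusted p below 0.05), where 0.350% of tested genes were, and nothing is read from that count because this contrast chose the genes. With the replicate number as a block all 5 were called, against 1.39% of tested genes.

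**Figure D1:**
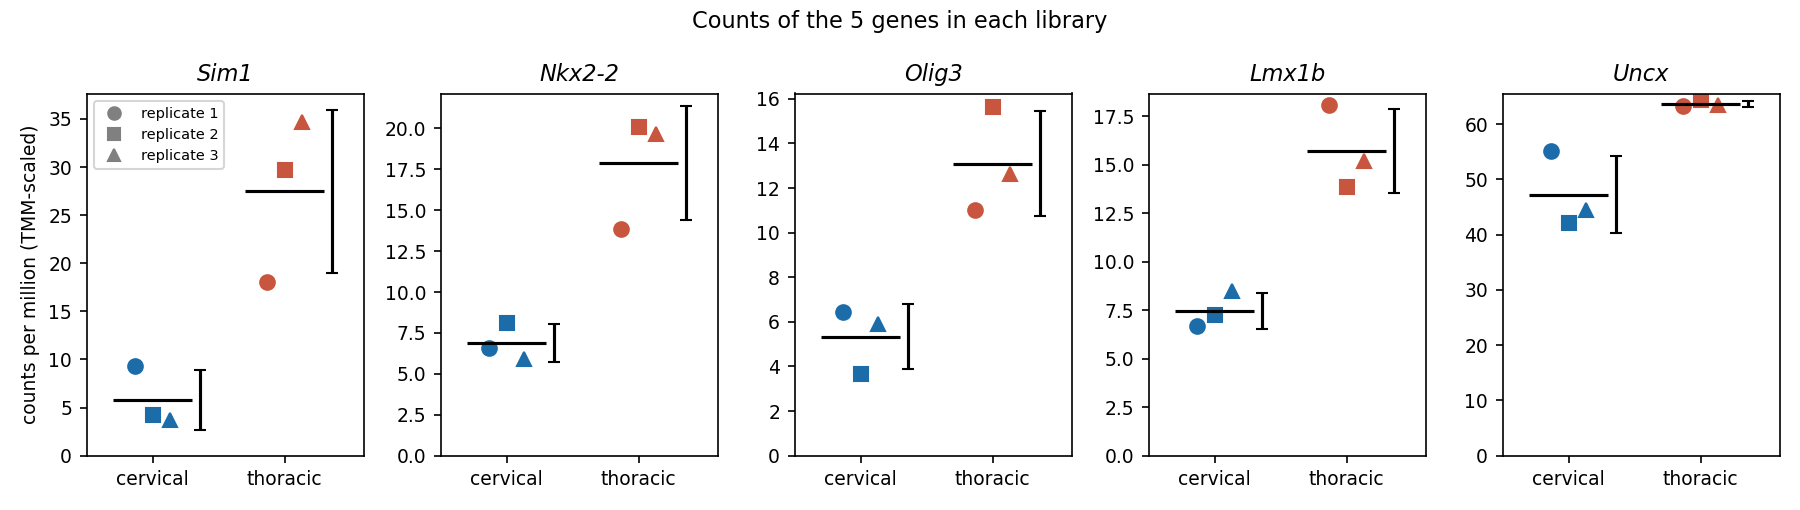
TMM-scaled CPM (y axis, from 0) of Sim1, Nkx2-2, Olig3, Lmx1b and Uncx in the 3 cervical and 3 thoracic libraries. Points are libraries with the replicate number as shape, lines are means and bars are SD over 3 libraries. Each thoracic point lies above all cervical points of its gene. As a ratio of the lowest thoracic to the highest cervical value the gap is least for Uncx (63.3 to 55.1 CPM, 1.15 times).

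Sim1, the gene that defines postmitotic V3 neurons, had the largest difference of the 5. It stood at 9.36, 4.22 and 3.76 CPM in cervical replicates 1, 2 and 3 and at 18.1, 29.7 and 34.7 CPM in the thoracic ones. Cervical replicate 1 was the highest cervical library and thoracic replicate 1 the lowest thoracic one. The means were 5.78 ± 3.11 and 27.5 ± 8.51 CPM (SD, n = 3 each), with a fitted log2 ratio (thoracic over cervical) of 2.25 (SE 0.33) or 4.74-fold. By replicate number the thoracic value was 1.93, 7.02 and 9.23 times the cervical one. Without both libraries numbered 1 the log2 ratio was 3.01 (SE 0.17) or 8.05-fold. This is a fit chosen after the values were seen. Sim1 lies on chromosome 10 from 50770850 to 50865248 (mm39, plus strand) with 13 merged exons.

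Nkx2-2, the p3 progenitor factor, stood at 6.60, 8.13 and 5.88 CPM in cervical and 13.9, 20.1 and 19.7 CPM in thoracic libraries. Here cervical replicate 1 lay between the other cervical libraries, and thoracic replicate 1 was again the lowest thoracic one. The log2 ratio was 1.37 (SE 0.17), or 2.59-fold, and by replicate number the thoracic value was 2.10, 2.47 and 3.34 times that of the cervical library. Nkx2-2 lies on chromosome 2 from 147019466 to 147036163 (mm39, minus strand). It shares 278 exonic bases with Nkx2-2os on the opposite strand, which had at most 2 counts in a library.

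The 250 bases upstream of the RefSeq starts of Sim1 (GRCm38.p6, chr10:50895401-50895650, plus strand) and Nkx2-2 (GRCm38.p6, chr2:147186403-147186652, minus strand) are shown because these are the markers of the postmitotic and the progenitor stage. Capitals mark the homeodomain core TAAT on either strand, which many homeodomain proteins bind, Hox proteins included.
Sim1: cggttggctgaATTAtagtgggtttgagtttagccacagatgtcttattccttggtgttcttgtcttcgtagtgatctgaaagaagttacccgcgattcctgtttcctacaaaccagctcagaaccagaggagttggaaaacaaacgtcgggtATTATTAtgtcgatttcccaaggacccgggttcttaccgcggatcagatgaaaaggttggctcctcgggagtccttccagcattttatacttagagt
Nkx2-2: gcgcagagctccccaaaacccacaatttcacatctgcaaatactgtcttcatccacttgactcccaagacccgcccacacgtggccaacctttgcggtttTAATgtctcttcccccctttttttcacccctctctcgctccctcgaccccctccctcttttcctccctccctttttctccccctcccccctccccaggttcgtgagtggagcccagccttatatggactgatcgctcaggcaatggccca

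These windows hold 3 cores upstream of Sim1 and 1 upstream of Nkx2-2. The window of Uncx holds 5, of which 4 lie as overlapping pairs on opposite strands, and those of Olig3 and Lmx1b hold none. A core is found in 54.9% of 32851 RefSeq promoter windows of this length. The NKX2 core AAGTG, searched on both strands, is found in 40.7% of windows and once each in those of Nkx2-2 and Olig3. The core ACGTG of Sim-Arnt dimers, also searched on both strands, is found in 16.6% of windows, and in those of Nkx2-2, Olig3 and Lmx1b. The 2 matches upstream of Nkx2-2 are the strands of 1 palindrome, which is also 1 of its 3 E-boxes (CANNTG, found in 66.2% of windows). The NKX2 core upstream of Nkx2-2 overlaps another of these E-boxes. The GLI consensus TGGGTGGTC is on neither strand in any of the 5 windows, and it is found in 0.225% of all. These matches are letters in a short window and do not show binding.

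Olig3 stood at 6.45, 3.67 and 5.91 CPM in cervical and 11.01, 15.6 and 12.6 CPM in thoracic libraries. Replicate 2 held both the lowest cervical and the highest thoracic value, so the ratio by replicate number was 1.71, 4.27 and 2.13. The log2 ratio was 1.29 (SE 0.21), or 2.45-fold. Olig3 is a single-exon gene on chromosome 10 (19232281 to 19234352, mm39, plus strand), and none of its exonic bases is shared with another gene.

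Lmx1b stood at 6.66, 7.28 and 8.48 CPM in cervical and 18.1, 13.9 and 15.2 CPM in thoracic libraries. Its replicates ran differently from those of Sim1, with replicate 1 lowest in cervical and highest in thoracic libraries. The ratio by replicate number was 2.72, 1.91 and 1.79, and the log2 ratio was 1.08 (SE 0.14), or 2.11-fold. Without both libraries numbered 1 it was 0.88 (SE 0.17). Lmx1b lies on chromosome 2 from 33450977 to 33530620 (mm39, minus strand) with 9 merged exons.

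The non-coding gene next to Lmx1b differed in the same direction. C130021I20Rik starts 584 bases beyond the Lmx1b gene in the mm39 coordinates of the deposited table, on the plus strand, so that the 2 genes are transcribed away from each other. It stood at 6.91, 7.13 and 10.9 CPM in cervical and 20.3, 17.6 and 17.1 CPM in thoracic libraries, with no overlap. The log2 ratio was 1.14 (SE 0.17, adjusted p in edgeR = 0.0207, and 0.00159 with the replicate block). The call ended when cervical replicate 2 (adjusted p = 0.0872), thoracic replicate 1 (0.0593), thoracic replicate 2 (0.0624) or thoracic replicate 3 (0.0622) was left out, while the direction held. It was also the gene whose profile over the 6 libraries was closest to that of Lmx1b among 17081 genes with a mean of at least 1 CPM. The root mean square difference of their centred log2(CPM + 0.5) values was 0.134. The 6 points share libraries and the regional contrast, so this likeness is a description. The genes share no exonic bases in the deposited annotation.

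In RefSeq on GRCm38.p6, Lmx1b starts at base 33641098 and C130021I20Rik at base 33641193 of chromosome 2. The 94 bases between these starts are fewer than the 584 bases between the genes in the deposited annotation. The 250 bases upstream of the Lmx1b start (chr2:33641099-33641348, minus strand) are shown because they reach past the start of C130021I20Rik, and capitals mark the 94 bases between the starts.
Lmx1b: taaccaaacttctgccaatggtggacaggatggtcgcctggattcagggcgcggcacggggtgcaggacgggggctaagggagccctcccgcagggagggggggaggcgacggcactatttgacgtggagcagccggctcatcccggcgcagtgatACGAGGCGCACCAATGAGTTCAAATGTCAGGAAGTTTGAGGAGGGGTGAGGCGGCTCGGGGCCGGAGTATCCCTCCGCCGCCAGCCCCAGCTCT

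**Figure D2:**
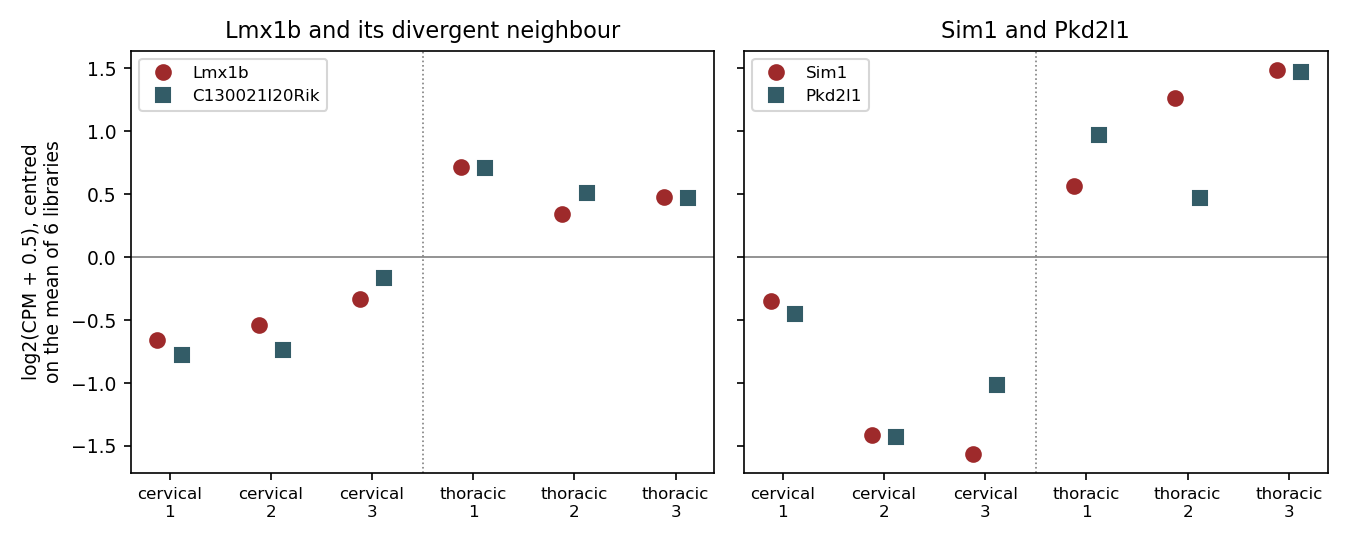
Profiles over the 6 libraries (x axis) as log2(CPM + 0.5) centred on the mean of each gene (y axis). Lmx1b and C130021I20Rik are on the left, and Sim1 with Pkd2l1, the closest profile to it, on the right. Lmx1b and C130021I20Rik lie within 0.134 of each other on average (root mean square), and Sim1 and Pkd2l1 within 0.430.

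Of 11 nearest tested neighbours of the 5 genes, edgeR's test called C130021I20Rik alone. Ascc3, 43.3 kb from Sim1, had a log2 ratio of 0.16 (adjusted p in edgeR = 0.612), and Dcbld1 on its other side, 1240 kb away, one of -0.07. For Nkx2-2 the neighbours were Xrn2, at 99.5 kb, with -0.03, and the overlapping 6430503K07Rik with 0.74 (adjusted p in edgeR = 0.773). Tnfaip3 and Ifngr1, at 341 and 233 kb from Olig3, had -0.09 and 0.23. Zbtb43, 92.4 kb from Lmx1b, had 0.15, and ENSMUSG00000121177, 58.2 kb from Uncx, had 0.13. Micall2, 159 kb from Uncx on the other side, had 0.41 (adjusted p in edgeR = 0.195). With the replicate block 9030622O22Rik, 750 kb from Nkx2-2, was called as well (1.43, adjusted p in edgeR = 0.483, and 0.0248 with the block). It stood at 0.527, 3.61 and 5.26 CPM in cervical and 6.10, 6.26 and 13.0 CPM in thoracic libraries. Like C130021I20Rik, the neighbours Ascc3, Micall2 and 9030622O22Rik were higher in thoracic libraries with no overlap, as 7.50% of all tested genes were.

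Uncx was the most abundant of the 5 and had the smallest difference. It stood at 55.1, 42.1 and 44.4 CPM in cervical and 63.3, 64.3 and 63.4 CPM in thoracic libraries. The thoracic libraries were nearly equal, and cervical replicate 1 came closest to them. The log2 ratio was 0.43 (SE 0.10), or 1.35-fold, with ratios by replicate number of 1.15, 1.53 and 1.43. Uncx lies on chromosome 5 from 139529249 to 139533934 (mm39, plus strand).

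Per length, in CPM per kilobase of exon (RPKM), the order of the levels was similar in both regions. In cervical libraries Uncx was highest (15.1 ± 2.21 RPKM), followed by Olig3 (2.58 ± 0.712), Nkx2-2 (2.39 ± 0.399), Lmx1b (1.502 ± 0.186) and Sim1 (0.671 ± 0.361; SD, n = 3 each). In thoracic libraries the levels were 20.3 ± 0.175 for Uncx, 6.32 ± 1.13 for Olig3, 6.22 ± 1.21 for Nkx2-2, 3.19 ± 0.987 for Sim1 and 3.16 ± 0.435 for Lmx1b. Olig3 and Nkx2-2 overlapped in both regions, and Sim1 and Lmx1b overlapped in thoracic libraries only. Over all libraries Uncx ranked at percentile 87.7 of the tested genes by RPKM, Olig3 at 60.7, Nkx2-2 at 59.9, Lmx1b at 47.0 and Sim1 at 43.1. The sum of the 5 genes was 20.0 to 25.4 RPKM in cervical and 36.1 to 41.3 RPKM in thoracic libraries.

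The ratio of Sim1 to Nkx2-2 in RPKM was 0.473, 0.173 and 0.213 in cervical replicates 1, 2 and 3 and 0.435, 0.492 and 0.588 in the thoracic ones. Cervical replicate 1 thus lay within the thoracic range. Relative to the motor neuron gene Mnx1, Sim1 reached 0.499 to 1.08% in cervical and 2.39 to 5.66% in thoracic libraries, and Nkx2-2 reached 2.28 to 4.75% and 5.51 to 11.5%. Against Isl1, another motor neuron gene, Sim1 reached 3.68 to 6.88% and 9.86 to 22.0%. Over the 6 libraries, the regional contrast included, Nkx2-2 and Olig3 were the most alike pair (root mean square difference of centred log2 values 0.361) and Sim1 and Uncx the least (0.968).

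**Figure D3:**
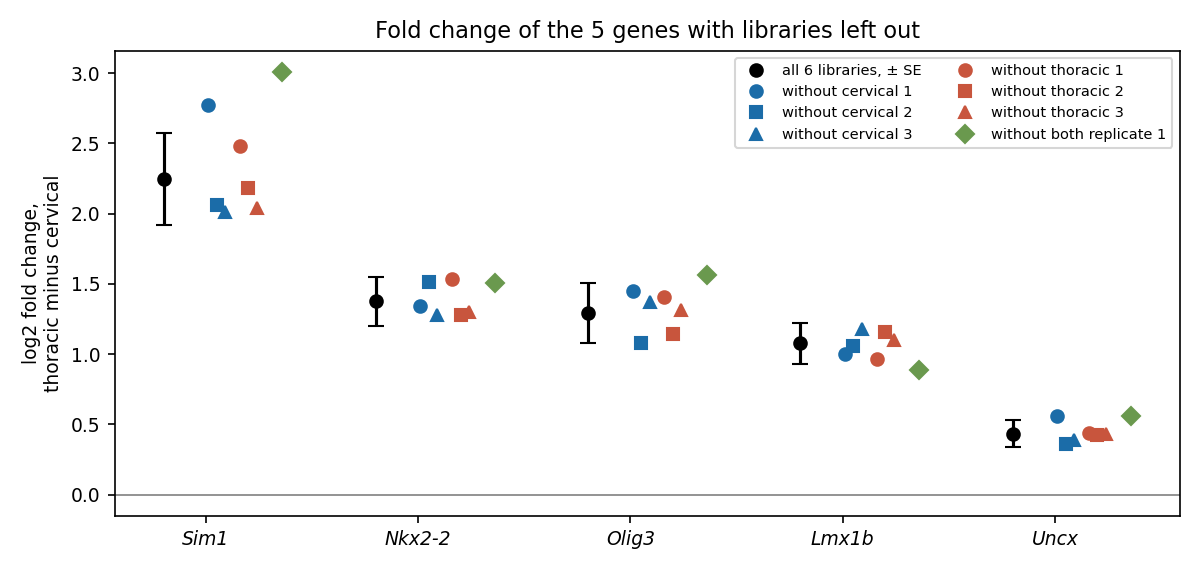
Log2 fold change (y axis, thoracic minus cervical) of the 5 genes with all 6 libraries (black, ± SE), with each library left out and with both libraries numbered 1 left out. All points lie above 0, and the spread is widest for Sim1, from 2.01 to 3.01.

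With each library left out in turn, the log2 ratio stayed between 2.01 and 2.78 for Sim1, 1.27 and 1.53 for Nkx2-2, 1.08 and 1.45 for Olig3, 0.96 and 1.18 for Lmx1b, and 0.36 and 0.56 for Uncx. The number of the 5 genes called fell from 4 to 1 without cervical replicate 2, to 0 without cervical replicate 3, and to 2 without thoracic replicate 2 or 3. Leaving out replicate 1 of the cervical libraries gave 5, and of the thoracic ones 4. These counts repeat the contrast that chose the genes, so they are no test of it.

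Of 9 other genes of the p3 and V3 lineage 8 were tested and 1 was called. Nkx6-1, a homeodomain factor of all ventral progenitors from p3 to p2 and of some motor neurons, rose in thoracic libraries. It stood at 35.2, 33.5 and 29.7 CPM in cervical and 45.2, 47.6 and 49.9 CPM in thoracic libraries (a log2 ratio of 0.54, SE 0.09, adjusted p in edgeR = 0.0261). It was called without cervical replicate 1, but not without cervical replicate 2 (adjusted p = 0.0953) or 3 (0.1295), nor without thoracic replicate 1 (0.0515), 2 (0.0849) or 3 (0.0956). With the replicate block Foxa2 was called too. The glutamate transporter gene Slc17a6, which V3 neurons share with other excitatory neurons, stood at 103.7 ± 1.15 and 114.9 ± 14.0 CPM in cervical and thoracic libraries (a log2 ratio of 0.15, adjusted p in edgeR = 0.708). Robo3, a receptor of commissural axons, had a log2 ratio of 0.20 and Arnt2, the Sim1 partner, one of 0.03. Neurog3, a proneural gene of p3, stood at 0.688 to 1.98 CPM in cervical and 1.74 to 3.01 CPM in thoracic libraries. It shares 273 exonic bases with Fam241b on the opposite strand, so its reads are uncertain. Nkx2-9, which overlaps Nkx2-2 in early p3 progenitors, reached at most 0.123 CPM and was not tested. The median log2 ratio of the 8 was 0.18, beside -0.01 for all tested genes.

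Of 7 paralogs of the 5 genes 3 were tested, and none was called by edgeR, DESeq2 or limma-voom, nor at an unadjusted p below 0.05 in edgeR. Sim2 stood at 0.292 ± 0.158 and 0.331 ± 0.0123 CPM in cervical and thoracic libraries, with a log2 ratio of 0.17. Olig2, which marks motor neuron progenitors and oligodendrocyte precursors, stood at 5.02 ± 1.16 and 5.40 ± 1.56 CPM (a log2 ratio of 0.10). Olig1 had a log2 ratio of -0.89 at under 1 CPM. Nkx2-4, Lmx1a, Nkx2-9 and Nkx2-1 were below the filter, with at most 0.282, 0.245, 0.123 and 0.0373 CPM in any library.

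Genes of hedgehog signalling were expressed in both regions. Of 11 genes for the ligand, its receptors and its targets, none was called by edgeR, DESeq2 or limma-voom, while at an unadjusted p below 0.05 in edgeR 2 were higher in thoracic and 1 in cervical libraries. Ptch1, the receptor that the signal itself induces, stood at 298.8 ± 12.4 and 318.1 ± 16.6 CPM in cervical and thoracic libraries (a log2 ratio of 0.09, adjusted p in edgeR = 0.804). Gli1, another target, stood at 4.17 ± 0.950 and 6.08 ± 1.68 CPM (0.54, adjusted p in edgeR = 0.594). With the replicate block 2 of the 11 were called higher in thoracic libraries, the ligand Shh (0.99, adjusted p in edgeR = 0.00649 with the block) and the co-receptor Cdon (0.32, 0.0383 with the block). Their unblocked adjusted p were 0.285 and 0.266. The median of the list was 0.12.

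Of 8 floor plate genes 7 were tested, none was called by edgeR, DESeq2 or limma-voom, and 4 had an unadjusted p below 0.05 in edgeR. All 7 log2 ratios were above 0, with a median of 1.01, and 5 of the 7 had no overlap between regions (7.50% of all tested genes). With the replicate block 5 of the 7 were called higher in thoracic libraries, against 1.39% of all tested genes. Among them were Foxa2, Shh, Ntn1 and Spon1 (adjusted p in edgeR from 0.00449 to 0.0354 for these 4). Ntn1, the midline guidance cue and the most abundant of them per length, stood at 222.8 CPM in cervical replicate 1 and 371 to 504 CPM in the other libraries. The floor plate sum was 415, 875 and 781 CPM in cervical replicates 1, 2 and 3 and 819, 1049 and 1155 CPM in the thoracic ones, so the regions overlapped. Cervical replicate 1 had the lowest sum of the cervical libraries. It held the highest cervical Sim1, Olig3 and Uncx and the lowest cervical Lmx1b, while Nkx2-2 was highest in cervical replicate 2. Thoracic replicate 1 had the lowest thoracic sum. It held the lowest thoracic Sim1, Nkx2-2, Olig3 and Uncx and the highest thoracic Lmx1b. The part of floor plate cells in the difference of the 5 genes was not tested.

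**Figure D4:**
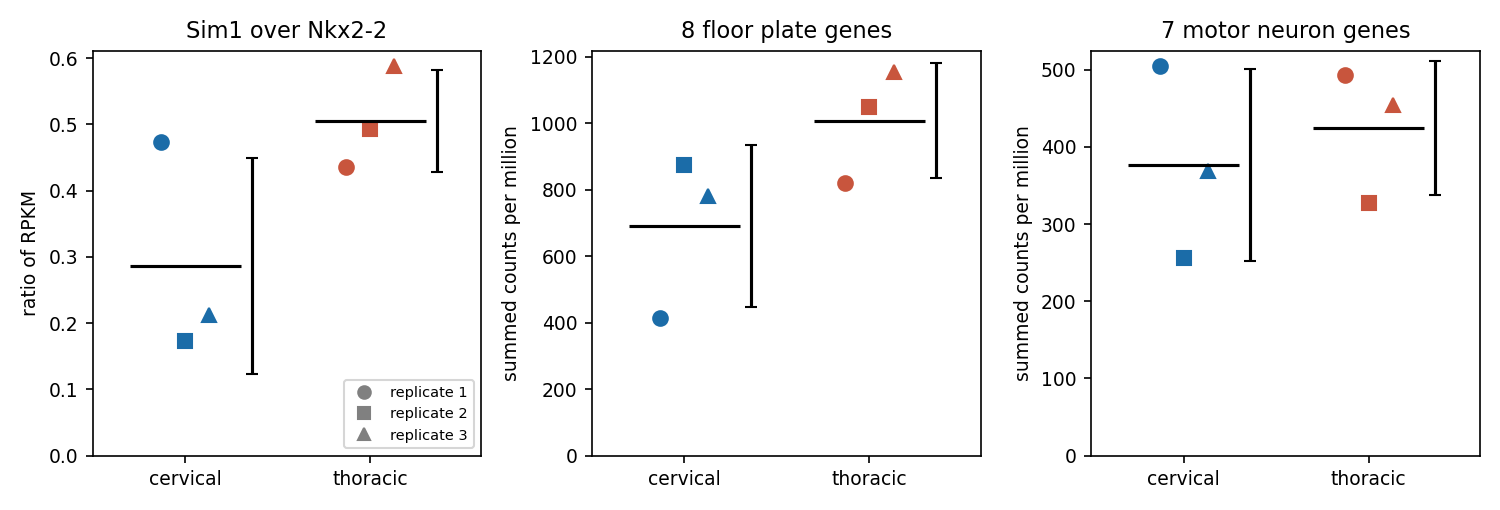
The ratio of Sim1 to Nkx2-2 in RPKM (left), the summed CPM of 8 floor plate genes (middle) and the summed CPM of 7 motor neuron genes (right) in the 3 cervical and 3 thoracic libraries. Points are libraries with the replicate number as shape, lines are means and bars are SD over 3 libraries. Cervical replicate 1 has the lowest floor plate sum (415 CPM) and a ratio (0.473) within the thoracic range.

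Among genes of neurons that contact the cerebrospinal fluid and of V2b interneurons, all 4 tested had a log2 ratio above 0. Of these 4, edgeR called 2 higher in thoracic libraries, where 0.350% of all tested genes were. Part of the neurons that contact the fluid is thought to arise next to the floor plate. Pkd2l1, their channel gene, stood at 1.58, 0.557 and 0.907 CPM in cervical and 5.08, 3.44 and 7.38 CPM in thoracic libraries (a log2 ratio of 2.38, SE 0.38, adjusted p in edgeR = 0.0249). It was not called without cervical replicate 2 (adjusted p = 0.0793) or 3 (0.128), nor without thoracic replicate 1 (0.0516) or 3 (0.0923). Gata3 stood at 11.5 ± 0.817 and 20.8 ± 3.47 CPM (a log2 ratio of 0.85, SE 0.13, adjusted p in edgeR = 0.0249). It was not called without cervical replicate 2 (adjusted p = 0.109) or 3 (0.119), nor without thoracic replicate 2 (0.0688) or 3 (0.0809). Gata2, with a log2 ratio of 0.38, and Tal1, with 0.27, were not called (adjusted p in edgeR = 0.492 and 0.684). The sum of the list of 5 was 31.0 to 38.1 CPM in cervical and 46.8 to 60.7 CPM in thoracic libraries.

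Lists of other cells that express Olig3, Lmx1b, Uncx or Nkx2-2 were compared in the same fit. None of 8 dI5 genes was called by edgeR or limma-voom, DESeq2 called 1 (Prrxl1), and at an unadjusted p below 0.05 in edgeR 1 was higher in each region. Their sum was 97.8 to 109 CPM in cervical and 78.8 to 99.1 CPM in thoracic libraries. Pou4f1, the most abundant of them per length, stood at 57.4 ± 5.51 and 49.7 ± 5.61 CPM in cervical and thoracic libraries. Tlx3, a defining gene of dI5 neurons, stood at 4.18 ± 0.656 and 4.94 ± 1.46 CPM, and Prrxl1 had a log2 ratio of -0.97 (adjusted p in edgeR = 0.113, and 0.00933 with the block). Of 7 genes of dI1 to dI3 edgeR called none, 1 in each region had an unadjusted p below 0.05, and DESeq2 and limma-voom called Lhx9. Lhx9 had a log2 ratio of 0.77 (adjusted p in edgeR = 0.0611, and 0.00656 with the block), with no overlap between regions. Lhx2 of the same list lay the other way, at 2.45, 4.02 and 6.79 CPM in cervical and 2.37, 0.705 and 0.494 CPM in thoracic libraries (a log2 ratio of -1.82, SE 0.52, adjusted p in edgeR = 0.246, and 0.0797 with the block), also with no overlap. Without both libraries numbered 1 edgeR called both of these genes. Atoh1, a defining progenitor gene of dI1, was at 0.0620 to 0.448 CPM. Neurog2, the most abundant of this list per length, stood at 28.0 ± 2.18 and 24.8 ± 1.89 CPM. The list summed to 84.0 to 108 CPM in cervical and 91.6 to 118 CPM in thoracic libraries. The part of these dorsal neurons in the levels of Olig3 and Lmx1b was not tested.

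Of 10 genes of sclerotome and limb mesenchyme 6 were tested and none was called by edgeR, DESeq2 or limma-voom, nor at an unadjusted p below 0.05 in edgeR. All 6 log2 ratios were above 0, with a median of 0.79. The defining sclerotome genes Pax1 and Nkx3-2 reached at most 0.313 and 0.0880 CPM, and Col1a1 and Col1a2 of the same list 28.4 and 44.8 CPM. Twist1 was higher in thoracic libraries with no overlap (at most 1.16 CPM in cervical, at least 1.23 CPM in thoracic ones), as 7.50% of all tested genes were. Pax9, below the filter, had no overlap in the same direction. The part of sclerotome or mesenchyme cells in the level of Uncx was not tested. The list summed to 7.44, 12.4 and 71.6 CPM in cervical and 41.2 to 73.7 CPM in thoracic libraries, and edgeR called Col1a1 higher in thoracic libraries with the block (adjusted p = 0.0122) and without cervical replicate 3 (0.0191), but not with all libraries and no block (0.669). The 5 myogenic genes summed to at most 1.45 CPM in any library, with Myf5 at 0.0313 to 0.248 CPM. Of 5 serotonergic genes the defining Fev and Tph2 reached at most 0.123 and 0.336 CPM. Ddc and Slc18a2, the 2 tested, were called by none of edgeR, DESeq2 and limma-voom and had no unadjusted p below 0.05 in edgeR. Slc18a2 stood at 13.2 ± 0.362 and 13.1 ± 3.19 CPM.

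Of 6 oligodendrocyte lineage genes edgeR called none, 2 had an unadjusted p below 0.05, DESeq2 called Cspg4 and limma-voom none. The list summed to 15.6 to 22.0 CPM in cervical and 19.5 to 30.8 CPM in thoracic libraries, and Cspg4 had a log2 ratio of 0.95 (adjusted p in edgeR = 0.262, and 0.00796 with the block). Among 7 motor neuron genes edgeR and limma-voom called none. DESeq2 called Isl1, which alone had an unadjusted p below 0.05 in edgeR. The block gave 2, Isl1 and Slc18a3. Isl1 had a log2 ratio of 0.62 (adjusted p in edgeR = 0.00105 with the block and 0.181 without). Slc18a3 had 0.51 (adjusted p in edgeR = 0.0303 with the block and 0.740 without). Mnx1 had -0.16 (adjusted p in edgeR = 0.903). Among 9 genes of other ventral interneurons 8 were tested, and 6 of the 8 log2 ratios were above 0, with a median of 0.17. At an unadjusted p below 0.05 in edgeR 3 were higher in thoracic and 2 in cervical libraries, DESeq2 called Foxd3 and Sox14, and edgeR and limma-voom called Foxd3. Sox14 had no overlap between regions and a log2 ratio of 0.66 (adjusted p in edgeR = 0.217). Evx1, the V0 gene, stood at 29.4 ± 2.53 and 30.4 ± 2.16 CPM, and Foxd3, a forkhead factor of V1 neurons, was higher in the cervical spinal cord (a log2 ratio of -0.38, adjusted p in edgeR = 0.0207). Its call was lost without cervical replicate 2 (0.0545) or 3 (0.145) and without thoracic replicate 2 (0.0608) or 3 (0.0780). In all, 3 of 72 tested genes of these lists were called higher in thoracic and 1 in cervical libraries, where 0.350% and 0.191% of all tested genes were. With the block the numbers were 14 and 2, where 1.39% and 0.573% were. The lists were chosen with earlier results of these data known, so nothing is read from these counts.

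**Figure D5:**
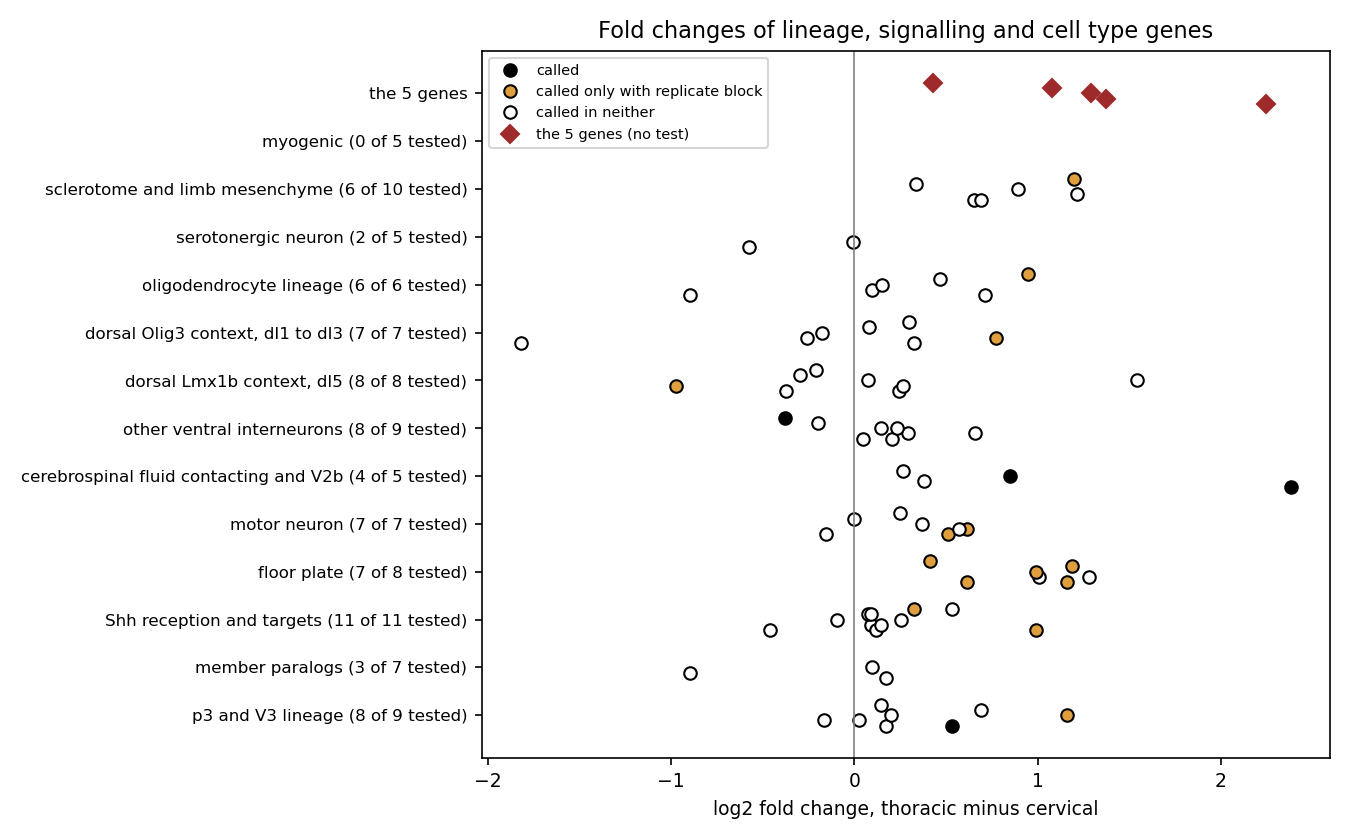
Log2 fold changes (x axis, thoracic minus cervical) of the tested genes of each list (rows, a gene may stand in more than 1 list) and of the 5 genes (diamonds, no test). Filled black points were called by edgeR, orange ones with the replicate block but not without it. All 7 floor plate genes lie to the right of 0 and 5 are orange, while 1 of the 8 genes of the p3 and V3 lineage is black and 1 orange.

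The genes with the profiles closest to those of the 5 genes were searched among the same 17081 genes, again over the 6 libraries and with the regional contrast as part of the profile. For Sim1 they were Pkd2l1 (root mean square difference 0.430), Pappa (0.513) and Gm49677 (0.518). Nkx2-2 was closest to Fgf10 (0.187), Sytl2 (0.187) and Prkg1 (0.195). Olig3 was closest to the neuropeptide gene Cartpt (0.155), Gm49677 (0.176) and the thoracic Hox gene Hoxa9 (0.186). After C130021I20Rik, Lmx1b was closest to Doc2a (0.141) and the potassium channel gene Kcna5 (0.172). Doc2a shares 1103 exonic bases with the more abundant Ino80e on the opposite strand, so its counts are uncertain. Uncx was closest to Glipr2 (0.0444), Galnt14 (0.0472) and ENSMUSG00000121080 (0.0550). For Nkx2-2, Olig3, Lmx1b and Uncx these values lay below the least difference between any pair of the 5 genes (0.361). The closest of 17081 genes are here set against the few pairs of 5 genes, so nothing is read from that.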

How the data were processed

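The submitters' table, as deposited, gives whole-number read counts per gene for the 6 libraries. RNA was depleted of rRNA, and libraries were made from 10 to 20 ng with a stranded kit and 15 PCR cycles, per the labels' protocols. The submitters' processing notes name FastQC 0.11.9, STAR 2.7.5b, featureCounts 2.0.1 and mm39, and neither the annotation release nor the strand setting was found in the sources used here. Reads of antisense partners that share exons therefore cannot be separated. RPKM use the gene lengths that the authors deposited beside the counts.

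Genes were kept by the default filter of edgeR 4.0.16 (R 4.3.3, minimum count 10), scaled by TMM and tested by quasi-likelihood with region as single factor. P-values were adjusted over all 21972 genes, and a SE is the log2 ratio over the square root of F. The script was tested on simulated data. Values after ± are SD over the 3 libraries of a region unless named SE. The chi-square per degree of freedom between any 2 libraries of the same region was 10.1 to 16.2, where counting noise gives about 1. This cannot tell separate embryos from separate preparations of the same RNA. Each library was treated as 1 sample. The titles number the libraries 1 to 3 in both regions, and whether same-numbered ones are paired is not stated. Deviations from the region means correlated across genes at 0.163, 0.160 and 0.195 for same-numbered libraries. For differently numbered ones the correlations ran from -0.179 to 0.00834. The 3 deviations of a region are tied through their mean, so these correlations are not independent. Values with the number as a block are given for named list genes and neighbours where they change a call. None is given for genes picked only by profile, which the regional contrast helped to choose. Alternatives were DESeq2 1.42.0, limma-voom (limma 3.58.1), other scalings and filters, and left-out libraries.

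The 5 genes and the lists were chosen with earlier results of these data known. By rule the text names the 5 genes, called list genes, the first and the most abundant gene of each list, all paralogs, the nearest tested neighbours and the 3 closest profiles of each gene. Other list genes, among them Slc17a6, Robo3, Neurog3, Gli1, Isl1, Lhx2, Sox14 and genes called with the block, were picked after their values were seen, and 1 list gene is not reported here by name. Promoters of all 5 genes were matched by symbol in RefSeq on GRCm38.p6, a build other than that of the counts.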

Additional observations from a re-analysis of the deposited data

How the results depend on the processing

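All 5 genes had a log2 ratio above 0 under all alternatives run, namely DESeq2, limma-voom, other scalings and filters, the replicate block and libraries left out. Over the fits that leave out libraries it ran from 2.01 to 3.01 for Sim1 and from 0.88 to 1.18 for Lmx1b, where 3.01 and 0.88 are without both libraries numbered 1, an alternative chosen after seeing the data. The number of the 5 genes called, 4 with all libraries, ran from 0 to 5 in those fits. The genes called higher in thoracic and cervical libraries, 77 and 42, became 282 and 126 with DESeq2, 515 and 232 without a low-count filter and 306 and 126 with the replicate block, and ran from 8 to 118 and from 1 to 88 with libraries left out. Among the listed genes the counts, 3 and 1, became 7 and 2 with DESeq2, 20 and 3 without the filter and 14 and 2 with the replicate block, and ran from 0 to 6 and from 0 to 2. The count of called neighbours, 1, became 2 without the filter and 2 with the block, and ran from 0 to 1. Among the 5 genes, the listed genes and the neighbours, the block added the calls counted in the report and ended none. The lowest counts came without cervical replicate 3 for all genes and for the 5 genes. The cause of these changes was not tested. With 3 libraries a region, genes of low count such as Sim2 and the paralogs below the filter cannot be resolved.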
